A study of Mus musculus with 6 samples.

Results

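The 46 protein-coding mouse genes whose symbol starts with Nduf were examined in LPS-treated macrophages with and without knockdown of PGAM5. They were taken by symbol, in GENCODE M21 (GRCm38), from the 54532 gene identifiers listed for each library. The rule uses the symbol and no measured value, although the family was picked with earlier results of these data known. Of the 46 genes, 8 are Ndufaf genes, which encode assembly factors, and the other 38 form the subunit class. This class includes Ndufa4 and Ndufa4l2, which carry the family name although their proteins are now placed with complex IV. RNA was sequenced from 3 libraries of control iBMDMs and 3 libraries of PGAM5 KD iBMDMs. iBMDMs descend from mouse bone marrow-derived macrophages, turned into a cell line by retroviral v-raf and v-myc. Both groups carried a lentiviral shRNA, a control sequence or one against Pgam5, and both received LPS at 100 ng/ml for 4 hours. No library of untreated cells was analysed here, and all comparisons are between groups that had received LPS. Each group rests on 1 shRNA as far as the labels tell, so loss of PGAM5 and other differences between the infected lines cannot be told apart. Whether the replicates were separate cultures is not given, and the p-values below then measure only the spread between these libraries.

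Complex I is the NADH dehydrogenase of the mitochondrial inner membrane. It takes electrons from NADH in a matrix arm, passes them along iron-sulfur clusters to ubiquinone, and pumps protons through a membrane arm. Its core subunits are encoded partly in the nucleus and partly in mitochondrial DNA, accessory subunits surround them, and assembly factors build the modules and leave before the enzyme is complete. In macrophages activated by LPS, the complex is known as a source of reactive oxygen species, in particular when electrons run backwards into it. PGAM5 is a phosphatase of the mitochondrial membrane that acts on the fission protein Drp1, and the comparison asked how its loss changes macrophage metabolism at the level of RNA.

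The libraries held between 18163464 and 24388917 fragments, recovered from the steps of the deposited FPKM values (fragments counted on a gene, divided by its exon length and by library depth). Pgam5 itself was at 17.1, 12.97 and 13.4 FPKM in the control libraries and at 4.33, 5.75 and 4.53 FPKM in the PGAM5 KD libraries, a log2 fold change of -1.40 ± 0.13 (SE; adjusted p = 0.000358, limma). Of 8 macrophage markers, 7 averaged at least 1 FPKM and Mertk was listed at 0 in every library. Their summed level was 2802 to 2894 FPKM in control and 2526 to 2544 FPKM in PGAM5 KD libraries. Lyz2 alone averaged 1465 FPKM over all libraries, so this sum rests largely on 1 gene. Markers of neutrophils, fibroblasts and lymphocytes (5 genes each, 11 of the 15 listed at 0 in all libraries) summed to at most 0.328, 0.0168 and 0.211 FPKM in any library. The part of the lower macrophage marker sum in the results below was not tested. In these bulk samples, fewer expressing cells and less RNA per cell cannot be told apart.

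Most complex I genes lay slightly higher in PGAM5 KD cells in the deposited FPKM (37 of 45), but only 25 of 45 did so after correction for exon length and GC content. Of the 46, 45 passed the filter of a mean of at least 1 FPKM, and 13 of them were higher at an adjusted p under 0.05 in limma, on the log2(FPKM + 1) scale used for all fold changes here. Over all 10540 genes tested, 31.7% passed this test, 16.8% higher and 14.9% lower. None of the 45 was lower, either after adjustment or at an unadjusted p under 0.05. With limma voom on the recovered fragments 14 were higher and 0 lower (18.8% and 18.0% of all genes), with 1 lower at an unadjusted p under 0.05. The log2 fold change was positive for 37 of the 45 (52.5% of all genes tested), with a median of 0.13 against 0.01 for all genes. No member passed the study's further threshold of an absolute log2 fold change above 1, which 1.32% of all genes tested did. The called genes had log2 fold changes of up to 0.59, that is PGAM5 KD means of up to 1.57 times the control means. In 16 members every PGAM5 KD library lay above every control library and in 1 every one lay below (24.2% and 22.9% of all genes tested).

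The count depended on scaling and on single libraries. Scaled to TPM, 7 members were higher and 0 lower, while over all genes tested 10.3% were higher and 21.6% lower, and 30 of the 45 were positive. Without PGAM5 KD replicate 2 the count was 6 of 45, near the 12.3% of all genes called higher in that fit, and without PGAM5 KD replicate 3 it was 8 (11.5% of all genes). After correction for exon length and GC content 5 of the 13 were still past the threshold and no other member passed it. These 5 are 11.1% of the 45, beside 13.3% of all genes called higher after the correction.

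**Figure D1:**
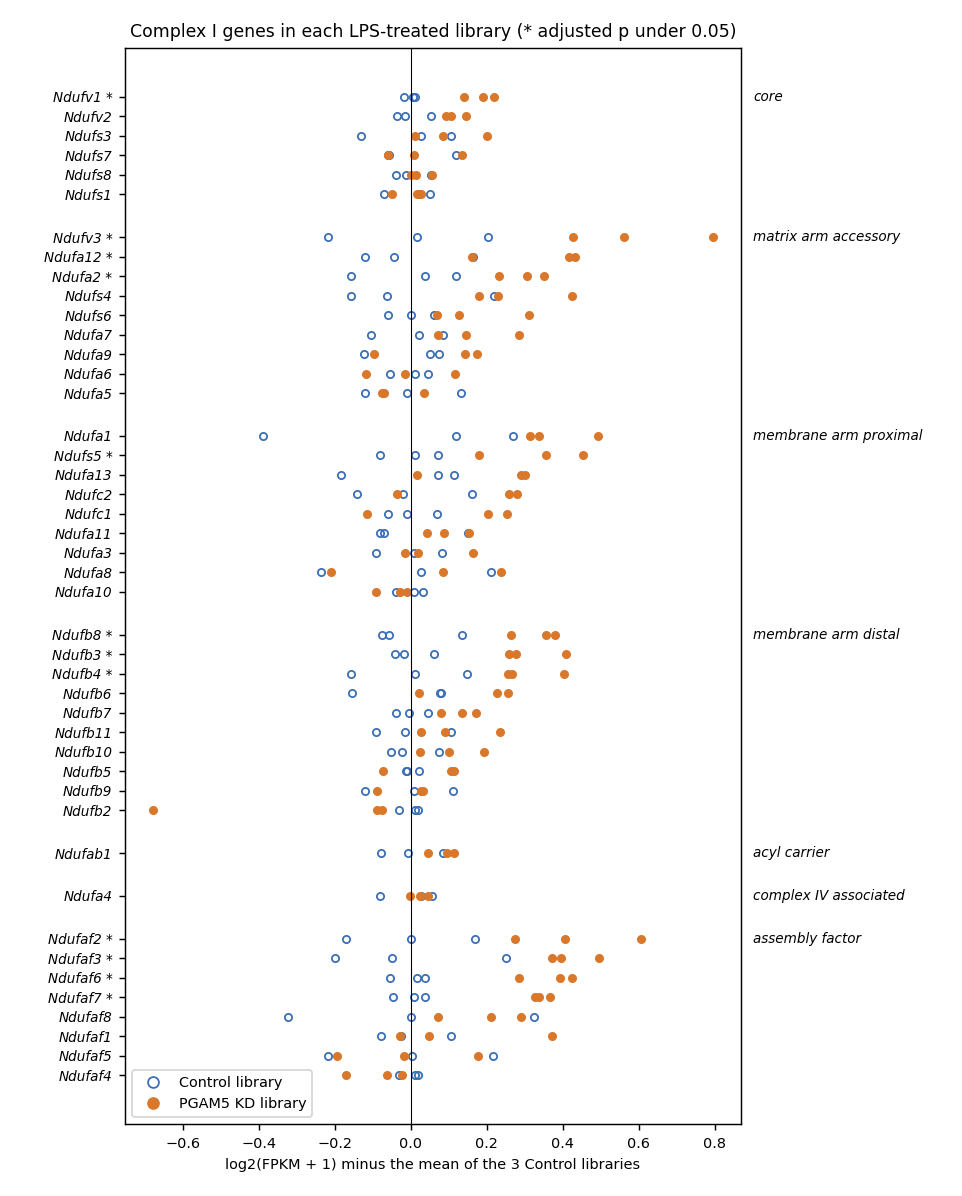
Level of each tested complex I gene in each library, as log2(FPKM + 1) minus the mean of the 3 control libraries (horizontal axis), with open circles for control and filled circles for PGAM5 KD libraries, grouped by place in the complex. Asterisks mark genes with an adjusted p under 0.05, 1 member is not drawn, and the filled circles of most genes lie to the right of 0, with Ndufv3 farthest at a log2 fold change of 0.59.

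RefSeq promoters (GRCm38.p6, 250 bases before to 50 bases after the annotated start) were available for 40 of the 46 genes. The sequences printed are those of Ndufv3, Ndufb8 and Ndufaf7, the genes past the threshold also after the correction that had an entry, and of Ndufs8, the member with the highest level, whose groups overlapped. They are given 5′ to 3′ on the strand of the gene, at chr17:31519865-31520164 (plus strand), chr19:44555393-44555692 (minus), chr17:78936885-78937184 (plus) and chr19:3912725-3913024 (minus). Capitals mark matches to the motifs searched.
Ndufv3: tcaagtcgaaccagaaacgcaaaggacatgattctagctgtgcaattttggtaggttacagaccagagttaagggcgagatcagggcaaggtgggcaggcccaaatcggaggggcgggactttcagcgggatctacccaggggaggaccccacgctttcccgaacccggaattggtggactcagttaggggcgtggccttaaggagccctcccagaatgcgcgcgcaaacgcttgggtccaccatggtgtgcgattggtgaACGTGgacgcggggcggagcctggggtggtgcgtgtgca
Ndufb8: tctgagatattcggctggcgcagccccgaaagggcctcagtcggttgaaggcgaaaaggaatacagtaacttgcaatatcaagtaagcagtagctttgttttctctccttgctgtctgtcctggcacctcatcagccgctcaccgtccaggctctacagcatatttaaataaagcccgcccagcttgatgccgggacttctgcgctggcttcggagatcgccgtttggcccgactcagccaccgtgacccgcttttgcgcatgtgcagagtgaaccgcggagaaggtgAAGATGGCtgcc
Ndufaf7: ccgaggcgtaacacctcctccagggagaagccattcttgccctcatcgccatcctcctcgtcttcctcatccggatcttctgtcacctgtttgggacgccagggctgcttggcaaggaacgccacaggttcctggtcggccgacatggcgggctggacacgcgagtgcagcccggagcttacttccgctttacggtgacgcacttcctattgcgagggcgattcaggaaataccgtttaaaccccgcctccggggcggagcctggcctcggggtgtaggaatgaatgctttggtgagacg
Ndufs8: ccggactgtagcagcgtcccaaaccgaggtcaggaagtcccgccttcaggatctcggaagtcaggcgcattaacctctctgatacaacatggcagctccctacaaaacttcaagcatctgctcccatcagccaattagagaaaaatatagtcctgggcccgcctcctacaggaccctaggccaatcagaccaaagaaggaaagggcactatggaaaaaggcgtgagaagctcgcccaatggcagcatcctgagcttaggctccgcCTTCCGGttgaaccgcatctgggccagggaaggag
Both strands were searched for the 10-letter NRF1 consensus, CCGGAAG (ETS), AAGATGGC (YY1) and ACGTG (the HIF core). The capitals are ACGTG from base 12 after the start in Ndufv3, AAGATGGC from base 39 in Ndufb8 and the reverse complement of CCGGAAG from base 16 in Ndufs8, and Ndufaf7 held none of the 4. The NRF1 motif was found in 9 of the 40 promoters (22.5%, against 13.4% of the 7679 tested genes with an entry) and the YY1 motif in 8 (20% against 6.28%). The ETS motif was found in 6 (15.0% against 23.5%) and the HIF core in 7 (17.5% against 30.9%). Of the 10 called genes with an entry, 2 held the NRF1 motif, 0 the ETS motif, 1 the YY1 motif and 3 the HIF core. A match to these letters does not show that a factor binds there.

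Nuclear core subunits carry the redox centres or stand beside them in the matrix arm. Ndufv1, which binds NADH and the flavin, was at 43.4, 44.2 and 44.3 FPKM in control and at 50.3, 48.5 and 51.4 FPKM in PGAM5 KD libraries. These groups did not overlap, and the log2 fold change was 0.18 ± 0.03 (SE; adjusted p = 0.00815). Ndufv2, an iron-sulfur protein that pairs with Ndufv1, was at 45.05, 42.2 and 42.9 FPKM against 48.1, 46.8 and 46.3 FPKM. Every PGAM5 KD library was higher, but the adjusted p was 0.0565 (log2 fold change 0.12 ± 0.04).

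Ndufs8, Ndufs1, Ndufs7 and Ndufs3 overlapped between the groups. Ndufs8, an iron-sulfur protein next to the quinone site and the member with the highest level, was at 184, 193 and 181 FPKM in control and 193, 188 and 186 FPKM in PGAM5 KD libraries. Its log2 fold change of 0.02 had a 95% interval of -0.06 to 0.10. Ndufs1, the largest core protein of the matrix arm, had a log2 fold change of -0.002 (interval -0.11 to 0.11), with 21.5 to 23.5 FPKM in control and 21.8 to 23.1 FPKM in PGAM5 KD libraries. For Ndufs7, which holds the last iron-sulfur cluster before ubiquinone, it was 0.03 (adjusted p = 0.788). Ndufs3, a core protein without a cofactor, had 0.10 (adjusted p = 0.354). After the GC and length correction Ndufv1 was at 0.10 and did not pass (adjusted p = 0.0764).

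Among the 9 accessory subunits of the matrix arm 3 rose, beside 16.8% of all genes tested, and the median was 0.17. After the GC and length correction the median was 0.04 and 2 were called, beside 13.3% of all genes called higher. The count was 1 without PGAM5 KD replicate 2 (12.3% of all genes), with TPM (10.3%) or without the filter (6.36%). Ndufv3, a small subunit of the NADH-oxidizing end whose isoforms differ by an alternatively spliced exon, had the largest fold change of all members. It was at 9.15, 7.92 and 6.58 FPKM in control and at 10.9, 12.03 and 14.3 FPKM in PGAM5 KD libraries. The spread within each group was wide, but the groups were apart and the log2 fold change was 0.59 ± 0.13 (SE; adjusted p = 0.0139), or 1.57 times the control mean. After the correction it was 0.54 (adjusted p = 0.0189), and it was called in 21 of 22 alternative analyses.

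Ndufa2, a subunit with a thioredoxin-like fold, was at 86.1, 75.1 and 91.1 FPKM in control and 98.6, 104 and 107 FPKM in PGAM5 KD libraries. The groups did not overlap, and the log2 fold change of 0.30 ± 0.07 (adjusted p = 0.0206) became 0.21 (adjusted p = 0.0480) after the correction. Ndufa12, which sits where the NADH end meets the quinone end, was at 12.5, 10.0 and 10.6 FPKM against 15.2, 15.0 and 12.4 FPKM. PGAM5 KD replicate 3 lay below control replicate 1, so the groups overlapped although the fit called the gene (0.34 ± 0.10, adjusted p = 0.0415). After the correction it did not pass (0.20, adjusted p = 0.179).

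Ndufs4, whose loss causes Leigh-like disease in mice and humans, was at 12.7, 16.7 and 13.6 FPKM in control and 16.9, 16.3 and 19.5 FPKM in PGAM5 KD libraries. Control replicate 2 lay within the PGAM5 KD range, and the adjusted p was 0.0939 (log2 fold change 0.28 ± 0.11). The remaining 5, Ndufs6, Ndufa5, Ndufa6, Ndufa7 and Ndufa9, had log2 fold changes of -0.04 to 0.17 and none passed the test.

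The membrane arm carries the proton pumps, with the mitochondrially encoded ND1 and ND2 near the matrix arm and ND4 and ND5 at the far end. Of 9 accessory subunits of the near end 1 rose, and of 10 of the far end 3 rose, beside 16.8% of all genes tested, with medians of 0.11 and 0.12. After the GC and length correction the near-end median was -0.04, with 0 called and 4 of 9 positive, and the far-end median was 0.05, with 1 called. Over all genes 13.3% were then called higher and 50% were positive. With TPM the near-end and far-end medians were 0.04 and 0.05. Without PGAM5 KD replicate 3 the near-end median was 0.07. The near-end count was 0 without PGAM5 KD replicate 2 (12.3% of all genes) and 2 without PGAM5 KD replicate 1 (14.2%). Ndufs5, on the intermembrane space side, was at 57.4, 53.8 and 59.9 FPKM in control and 78.3, 73.2 and 64.7 FPKM in PGAM5 KD libraries, with the groups apart (log2 fold change 0.33 ± 0.07, adjusted p = 0.0157), and after the correction it did not pass (0.20, adjusted p = 0.116). Ndufa1, a single-pass protein needed early in assembly, had a larger log2 fold change of 0.38 but a larger error of 0.16 (adjusted p = 0.112). It was at 34.7, 38.6 and 24.1 FPKM in control and 45.2, 40.5 and 39.8 FPKM in PGAM5 KD libraries, and the groups were apart, with control replicate 3 far below the other libraries. The other 7 of the near end, among them Ndufa13 (also known as GRIM-19) at 0.20 (adjusted p = 0.183), had log2 fold changes of -0.04 to 0.20.

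At the far end the rise was seen in Ndufb8, Ndufb3 and Ndufb4, which all span the membrane. Ndufb8, often used as a blot marker of assembled complex I, was at 29.2, 25.5 and 25.1 FPKM in control and 32.0, 34.8 and 34.2 FPKM in PGAM5 KD libraries. No PGAM5 KD library reached down to the control range, and the log2 fold change of 0.33 ± 0.07 (adjusted p = 0.00928) was 0.26 after the correction (adjusted p = 0.0225). Ndufb3 was at 44.0, 40.9 and 41.6 FPKM against 56.2, 51.2 and 50.6 FPKM, a log2 fold change of 0.31 ± 0.05 (adjusted p = 0.00465). The gap between its groups was wider than the range within either, but after the correction 0.17 remained (adjusted p = 0.0647). Ndufb4 was at 15.4, 17.0 and 13.6 FPKM against 18.5, 18.4 and 20.5 FPKM (0.31 ± 0.08, adjusted p = 0.0298), and after the correction it did not pass (0.18, adjusted p = 0.150).

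Ndufb2 was the one member with every PGAM5 KD library below every control library, and it also had the lowest level of those detected. It was at 1.56, 1.54 and 1.47 FPKM in control and 0.574, 1.39 and 1.37 FPKM in PGAM5 KD libraries. PGAM5 KD replicate 1, with 71 fragments, stood apart from the other PGAM5 KD libraries. The gene did not pass (log2 fold change -0.28 ± 0.18, adjusted p = 0.272, and -0.38 to -0.08 with any 1 library left out). Its annotated exons sum to 5628 bases, far above the 1569 bases of the median subunit, and its fragments were few as well, 71 to 188 in a library. Ndufab1, the mitochondrial acyl carrier protein that is also part of both arms of complex I, stood at 0.08 ± 0.06 on the log2 fold scale (adjusted p = 0.288). For Ndufa4 it was 0.02 ± 0.04 (adjusted p = 0.712), at 90.6 to 99.7 FPKM in control and 95.9 to 99.0 FPKM in PGAM5 KD libraries. Ndufa4l2, a hypoxia-induced relative of Ndufa4, was listed at 0 in all 6 libraries. With 3 fragments as the limit that a count of 0 allows per library, this leaves room for up to 0.112 to 0.151 FPKM, counting error only.

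Of the 8 Ndufaf assembly factors 4 rose and 0 fell, beside 16.8% and 14.9% of all genes tested, and the median log2 fold change was 0.27. At an unadjusted p under 0.05 the same number, 4, were higher and 0 lower in limma. The number called was 2 without control replicate 1 (13.2% of all genes), PGAM5 KD replicate 2 (12.3%) or PGAM5 KD replicate 3 (11.5%), and without the filter (6.36%). After the GC and length correction it was 2 as well (13.3%), and the median was 0.14. Ndufaf6, which acts on the quinone module and on ND1, was at 13.7, 13.5 and 12.8 FPKM in control and at 17.8, 16.5 and 18.3 FPKM in PGAM5 KD libraries. The groups were well apart, with a log2 fold change of 0.37 ± 0.05 (SE) and, at 0.00264, the lowest adjusted p of any member. Ndufaf7, a methyltransferase that acts on a core subunit, was at 3.88, 3.61 and 3.79 FPKM in control and 5.13, 4.97 and 5.01 FPKM in PGAM5 KD libraries. The libraries of each group lay close together and the groups were apart, with a log2 fold change of 0.34 ± 0.06 (adjusted p = 0.00563). After the correction Ndufaf6 was at 0.22 (adjusted p = 0.0262) and Ndufaf7 at 0.28 (adjusted p = 0.0161). Ndufaf7 was the only member called in every alternative analysis it entered, 21 of 21.

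Ndufaf2 is a relative of Ndufa12 that occupies its place during assembly and is then exchanged for it. It was at 4.23, 4.88 and 3.65 FPKM in control and 5.32, 6.95 and 5.92 FPKM in PGAM5 KD libraries, with a log2 fold change of 0.43 ± 0.12 (adjusted p = 0.0302) beside 0.34 for Ndufa12. Ndufaf3, which binds the quinone module together with Ndufaf4, was at 5.22, 5.90 and 7.51 FPKM in control and 8.40, 8.25 and 9.08 FPKM in PGAM5 KD libraries (0.42 ± 0.11, adjusted p = 0.0298). The groups did not overlap for either gene, but neither passed after the correction (0.35, adjusted p = 0.0608, and 0.30, adjusted p = 0.0981). Ndufaf4, the partner of Ndufaf3, did not pass the test, at 16.9, 17.0 and 16.4 FPKM in control and 16.4, 14.7 and 16.0 FPKM in PGAM5 KD libraries (-0.09 ± 0.05, adjusted p = 0.238).

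The other 3 assembly factors overlapped between the groups. Ndufaf1, a member of the membrane arm assembly complex with Ecsit and Acad9, stood at 0.13 ± 0.11 on the log2 fold scale (adjusted p = 0.395). Ndufaf5, which hydroxylates an arginine of Ndufs7, had -0.01 ± 0.13 (adjusted p = 0.953). Ndufaf8, which works with Ndufaf5, had 0.19 ± 0.15 (adjusted p = 0.383). Their control libraries alone ranged from 9.11 to 12.7 FPKM for Ndufaf5 and from 13.2 to 21.3 FPKM for Ndufaf8, and the 95% intervals of the log2 fold change reached from -0.32 to 0.30 and from -0.17 to 0.55.

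**Figure D2:**
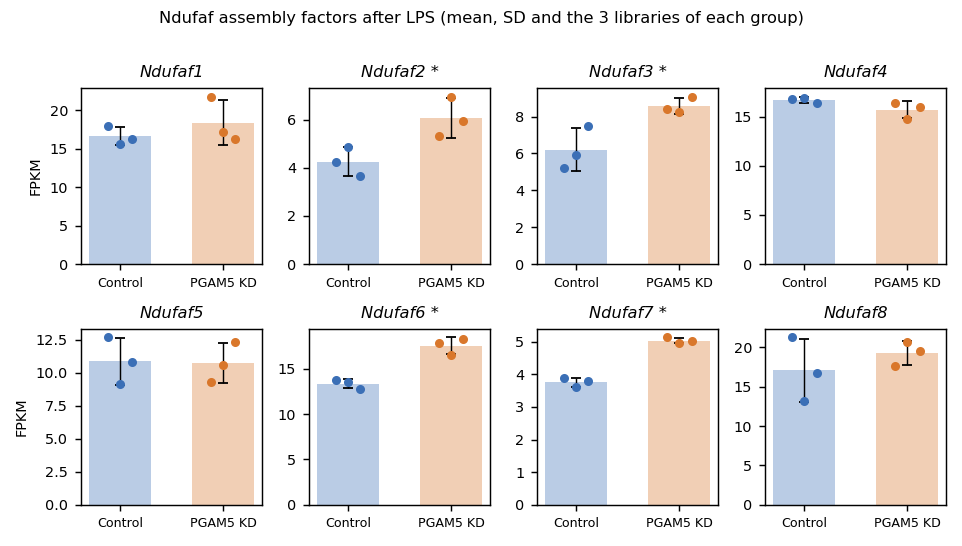
FPKM (vertical axis, starting at 0) of the 8 Ndufaf genes in control and PGAM5 KD libraries, with bars for the mean of 3 libraries, error bars for the SD and points for the libraries. In Ndufaf2, Ndufaf3, Ndufaf6 and Ndufaf7, marked with an asterisk for an adjusted p under 0.05, all PGAM5 KD points lie above all control points, and in the other 4 the points overlap.

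Of the 13 calls, 6 held when any 1 library was left out, those of Ndufv1, Ndufv3, Ndufb3, Ndufb8, Ndufaf6 and Ndufaf7 (limma adjusted p at most 0.0424). The call of Ndufa2 was lost without PGAM5 KD replicate 2 (adjusted p = 0.0594) or 3 (0.0691), and that of Ndufs5 without control replicate 2 (0.0527) or PGAM5 KD replicate 2 (0.0504). For Ndufa12 it was lost without control replicate 2 (0.120) or 3 (0.113) or PGAM5 KD replicate 1 (0.108) or 2 (0.118). Ndufaf2 was lost without control replicate 1 (0.0736) or 3 (0.0857) or PGAM5 KD replicate 2 (0.0848) or 3 (0.0750). Ndufaf3 passed without control replicate 3 (0.00601) and was lost without each other library (0.0617 to 0.0929). Ndufb4 passed without control replicate 2 (0.0189) and was lost without each other library (0.0530 to 0.0929). Of the members not called, Ndufv2 passed without control replicate 1 (0.0467), Ndufs4 (0.0253) and Ndufa11 (0.0499) without control replicate 2, and Ndufc1 without PGAM5 KD replicate 1 (0.0250).

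Set side by side, the median log2 fold change was 0.12 for the 37 tested subunits, of which 9 were called higher (24.3%), and 0.27 for the 8 assembly factors, of which 4 were called (50%). Over all genes tested 16.8% were called higher. The difference of the medians, subunits minus assembly factors, was -0.15. It was -0.093 without control replicate 2, -0.19 without control replicate 1 and -0.074 with a minimum of 5 FPKM. In each library, the median of log2(FPKM + 1) over the subunits relative to the control mean was 0.02, -0.02 and -0.01 in control and 0.07, 0.14 and 0.17 in PGAM5 KD libraries. For the assembly factors it was 0.04, -0.05 and -0.01 in control and 0.32, 0.29 and 0.27 in PGAM5 KD libraries. Subunits minus assembly factors thus came to -0.02, 0.03 and 0.001 in control and to -0.25, -0.15 and -0.10 in PGAM5 KD libraries, lower in every PGAM5 KD library. Genes are not replicates of a condition and 4 of the 8 assembly factors did not pass the test, so the difference between the classes is a description without a test.

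The classes also differed in level and therefore in weight. Summed over the class, subunits made up 1553 to 1629 FPKM in control and 1700 to 1777 FPKM in PGAM5 KD libraries, and assembly factors 82.8 to 95.7 FPKM and 99.9 to 102 FPKM. As a share of all FPKM in the library, subunits were at 0.509% to 0.534% in control and 0.535% to 0.550% in PGAM5 KD libraries. Those ranges nearly touch, and the FPKM total itself was higher in PGAM5 KD libraries, at 317936 to 324298 against 304393 to 304889. For the assembly factors the shares were 0.0272% to 0.0314% and 0.0308% to 0.0320%, which overlapped.

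Nduf genes are short, and short genes as a whole lay higher in PGAM5 KD libraries. The 10535 tested genes with a known exon length were divided into 5 bins by exon sequence. The bin of the shortest (up to 1917 bases) had a median log2 fold change of 0.13 with 22.5% called higher. Of the 45 members 28 fell in it, 7 of them called higher. The next bin (up to 3340 bases) had a median of 0.08 with 24.1% called higher, and 10 members fell in it, 5 of them called. In the bin of the longest (above 7186 bases) the median was -0.09, 6.55% were called higher and 1 member, Ndufs1, fell in it. The exons of the median subunit summed to 1569 bases and those of the median assembly factor to 1802 bases, against 4093 bases for all tested genes. GC content varied less with the fold change, with medians of -0.02 in the lowest and 0.04 in the highest of 5 bins, and the median GC content was 50.9% for subunits, 47.2% for assembly factors and 49.0% for all.

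**Figure D3:**
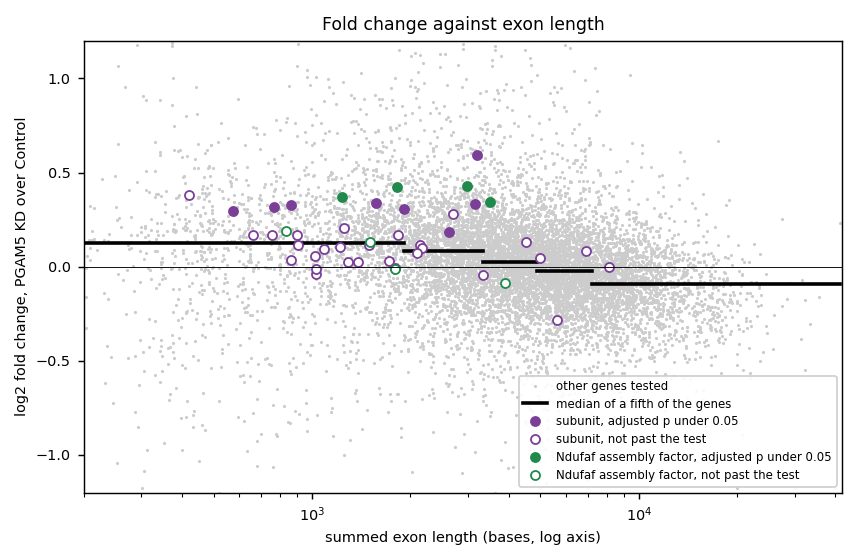
Log2 fold change of PGAM5 KD over control (vertical axis) against summed exon length in bases (horizontal, log axis) for all tested genes (grey), subunits (purple) and Ndufaf genes (green), filled where the adjusted p was under 0.05, with 1 member not marked. Black bars give the median of each of 5 bins of all genes by length and step down from 0.13 to -0.09, and genes beyond the plotted range are not drawn.

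To take this into account, a smooth curve of GC content and exon length, fitted over all tested genes, was subtracted in each library. The correction lowered the median log2 fold change of subunits to 0.04, with 20 of 37 positive (50% of all genes) and 3 called higher, against 13.3% of all genes. The assembly factors had a median of 0.14, with 5 of 8 positive and 2 called higher. Over both classes 5 genes passed, Ndufv3, Ndufa2, Ndufb8, Ndufaf6 and Ndufaf7, all of them among the 13 called without it. Calls were lost for Ndufv1, Ndufa12, Ndufs5, Ndufb3, Ndufb4, Ndufaf2 and Ndufaf3. None was lower after adjustment in limma, and 4 were lower at an unadjusted p under 0.05. In single libraries the corrected subunit median was 0.03, -0.01 and -0.01 in control and -0.03, 0.07 and 0.05 in PGAM5 KD libraries, which overlapped. The corrected assembly factor median was 0.04, -0.05 and -0.01 in control and 0.21, 0.14 and 0.16 in PGAM5 KD libraries, apart in every library. Whether the dependence on length arose in the cells or in the libraries was not tested.

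**Figure D4:**
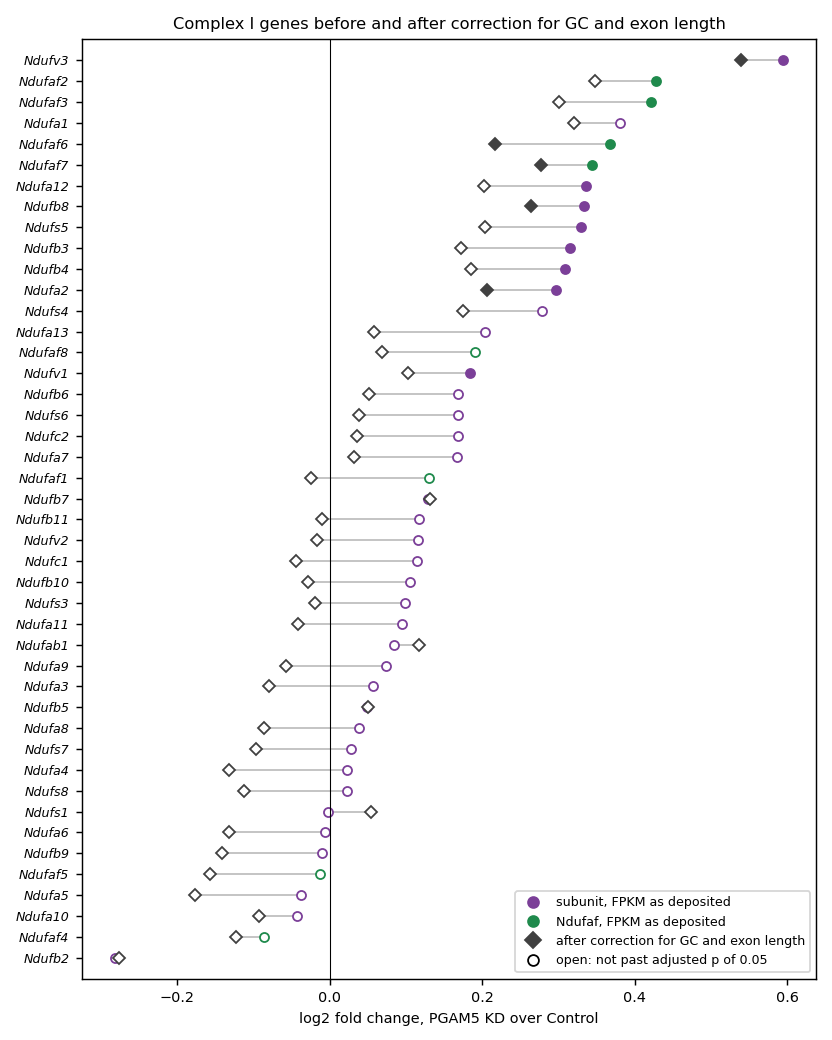
Log2 fold change of each tested complex I gene as deposited (circles, purple for subunits and green for Ndufaf genes) and after correction for GC content and exon length (diamonds), filled where the adjusted p was under 0.05. Most diamonds lie to the left of their circles, 5 genes have both symbols filled, and 1 member is not drawn.

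Some members share sequence or position with other genes, which affects how far their counts can be trusted. Ndufa12 is 99.5% identical over 402 bases to the pseudogene Gm15920, and only 33.1% to 45.9% of the fragments counted for the pair were assigned to Ndufa12. Summed over both, the log2 difference in fragments, scaled to depth, was 0.26 and the groups did not overlap (exact permutation p = 0.1, the smallest possible with 3 against 3). Ndufab1 held 79.0% to 81.6% of the fragments it shares with Gm4459 and Ndufab1-ps, and the summed difference was 0.07 with overlapping groups. Ndufb4 held 90.6% to 96.5% of those it shares with Ndufb4c, with a summed difference of 0.33. Ndufs3 held 93.1% to 95.9% of those it shares with Gm12251, with a summed difference of 0.10.

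Whether the counting used strand is not stated, so fragments from overlapping exons are uncertain too. In Ndufaf2, 65.6% of the exon sequence overlaps the lincRNA B230220B15Rik on the opposite strand, which was listed at 0 FPKM. Overlaps above 10% with a gene at more than 1 FPKM were found for Ndufa13 (30.0%, Tssk6), Ndufb11 (12.9%, Rbm10), Ndufb5 (12.3%, Mrpl47) and Ndufa2 (11.5%, Tmco6). Ndufb6 (39.0%, Smim27) and Ndufb9 (19.5%, Gm49356) overlap genes below that level. Of these members, only Ndufa2 and Ndufaf2 were called.

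Complex I assembly also uses proteins outside the Nduf family. Of 17 gene symbols listed for this, 15 were in the annotation and 14 passed the filter, with Sfxn4 below it. The 14 include Atp5s, which carries the name of an ATP synthase gene (log2 fold change 0.13, adjusted p = 0.550). Of the 14, 5 were higher and 1 lower (16.8% and 14.9% of all genes tested), with a median log2 fold change of 0.13. The number higher was 2 without control replicate 2 (12.8% of all genes) or PGAM5 KD replicate 3 (11.5%), and 3 without PGAM5 KD replicate 2 (12.3%) or with the replicate number as a block (13.7%). With TPM 2 were higher (10.3% of all genes) and 2 lower (21.6%), without a filter 2 were higher (6.36%), and after the GC and length correction 1 was (13.3%). The 5 were Ecsit, an adaptor that also takes part in Toll-like receptor signalling (0.34, adjusted p = 0.0390), Dmac1 (0.29, 0.0194), Tmem70 (0.26, 0.00272), Timmdc1 (0.25, 0.0139) and Foxred1 (0.22, 0.0323). Tmem186, a partner of Ecsit in the membrane arm assembly complex, was lower, at 8.04, 8.36 and 8.02 FPKM in control and 6.29, 6.80 and 6.57 FPKM in PGAM5 KD libraries (-0.28, adjusted p = 0.00804). After the correction Foxred1 (0.21, adjusted p = 0.0371) and Tmem186 (-0.33, adjusted p = 0.00355) were still called.

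Subunits encoded in mitochondrial DNA were lower in PGAM5 KD cells. Of the 7 mt-Nd genes, 6 were lower in limma, beside 14.9% of all genes tested, and 0 higher, also at an unadjusted p under 0.05. With voom 5 were lower, beside 18.0% of all genes. The log2 fold changes in the main fit were -0.79 to -0.08, with a median of -0.71. mt-Nd4, one of the proton pumps, was at 408, 422 and 403 FPKM in control and 244, 259 and 249 FPKM in PGAM5 KD libraries (adjusted p = 2.54e-05). The exception was mt-Nd4l, at 2.97, 3.34 and 2.41 FPKM against 2.91, 1.67 and 3.73 FPKM (-0.08, adjusted p = 0.791). After the GC and length correction 6 were lower (13.9% of all genes), with a median of -0.79. Nuclear core subunits such as Ndufs8, at 0.02, and Ndufv1, at 0.18, thus stood beside mitochondrially encoded core subunits at -0.79 to -0.56. mt-Nd4l, with its few fragments, is left out of this range. These libraries were made from poly(A) RNA, and how evenly that selection takes up mitochondrial RNA was not tested.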

How the data were processed

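Poly(A) RNA of 6 libraries of LPS-treated iBMDMs (3 Control, 3 PGAM5 KD) had been sequenced. The authors deposited FPKM values, 1 table per library, and the submitters' processing notes name HISAT2 2.0.5, featureCounts 1.5.0-p3 and mm10. The paper's methods name iDEP for differential expression. Strand setting and annotation are not given in the sources used here. FPKM times exon length fell on whole fragments within 0.01 for 96.8% to 97.1% of values under 1000 fragments, which gave each library's depth. In GENCODE M21, 37 identifiers were not found.

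For the 10540 genes averaging 1 FPKM or more, log2(FPKM + 1) was fitted in limma 3.58.1 under R 4.3.3 by lmFit and eBayes, with a trend of variance on the mean, two-sided p-values and adjustment after Benjamini and Hochberg. The fit was also run on simulated data, without and with a GC trend but with no trend in exon length. That run therefore cannot speak for the length correction. For single values an exact two-sided permutation test was used. FPKM carries no scaling between libraries beyond depth, so the composition of a library can move all its values. To correct for exon length (the union of annotated exons) and GC content, natural splines (4 degrees of freedom each) were subtracted in each library. Of the genes tested 10535 had an exon length and 10523 a GC content, and the rest were given the median. Resembling genes were sought with blastn 2.17.0 (at least 90% identity over 200 bases). Alternatives were another pseudocount, filter, scaling, variance model or gene set, voom, a replicate block and each library left out. Same-numbered libraries did not deviate together (correlations of -0.02, 0.02 and -0.05), so the numbers were not taken as pairs.

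The members, subunit groups and further lists were chosen with earlier results of these data known. All members enter the counts and medians, but the values of 1 are not reported here. Named by rule were core subunits, all Ndufaf genes, Ndufab1, Ndufa4 and Ndufa4l2, the 6 called accessory subunits with the largest rise (none fell), the highest and lowest members, and those whose call moved with the correction or that share reads. Ndufa1, Ndufs4 and other members outside this rule were named after their values were seen.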

Additional observations from a re-analysis of the deposited data

How the results depend on the processing

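The numbers of higher genes (13 Nduf genes, 9 subunits, 4 assembly factors) and the medians moved with filter, scaling, length and single libraries. Without a filter they were 7, 5 and 2, where 6.36% of the 20816 genes adjusted for were higher. With TPM the first 2 counts were 7 and 4 (10.3% of all genes), and the medians were 0.038 for subunits and 0.20 for assembly factors. Quantile normalization gave a subunit median of 0.069, and voom an assembly factor median of 0.30. A minimum of 5 FPKM left 7 assembly factors with a median of 0.19 and a difference between the class medians of -0.074. The counts were 5, 3 and 2 after the GC and length correction (13.3% of all genes), 4, 2 and 2 with length alone (13.03%), 3, 1 and 2 with the correction and a replicate block (10.3%), and 3, 1 and 2 with GC and coding transcript length (12.95%), chosen after seeing the data. Subunit medians were then 0.036, 0.036, 0.036 and 0.0063, assembly factor medians 0.14 in each, and positive subunits 20, 20, 20 and 19 of 37. With GC alone the counts stayed within 1.5 times. The replicate block alone gave 11, 7 and 4 (13.7% of all genes). Under the block with the correction Ndufv3 (adjusted p = 0.0593), Ndufa2 (0.0602), Ndufb8 (0.0592) and Ndufaf6 (0.0585) did not pass, and of the 5 corrected calls that of Ndufaf7 held (0.0488).

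Leaving out each library gave 6 to 11 Nduf genes, 4 to 9 subunits and 2 to 3 assembly factors, medians of 0.11 to 0.16 and 0.21 to 0.34, and differences of -0.19 to -0.093. In these fits 11.5% to 14.2% of all genes were higher. The lowest counts came without PGAM5 KD replicate 2 (6, 4 and 2, beside 12.3%). Assembly factors numbered 2 also without control replicate 1 (median 0.34) or PGAM5 KD replicate 3. Without control replicate 2 their median was 0.21 and the difference -0.093, and without PGAM5 KD replicate 1 the subunit median was 0.16. No called change reversed under any alternative, but the sign of uncalled members did, for 14 of 45 under the GC and length correction and 7 with TPM. The causes were not tested. Of the members tested Ndufb2 had the fewest fragments, 71 to 188 in a library, and the part of counting error in its spread was not tested.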

Other observations

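Nduf symbols that are not protein-coding in the annotation were left out of the counts above. Among them Ndufb1-ps, annotated as a lncRNA of a bidirectional promoter, was at 24.5, 31.0 and 30.1 FPKM in control and 51.0, 37.3 and 35.1 FPKM in PGAM5 KD libraries (log2 fold change 0.50, adjusted p = 0.0414, limma). PGAM5 KD replicate 1 stood well above the other 2, and after the GC and length correction the gene did not pass (0.37, adjusted p = 0.145). Ndufab1-ps (0.03), Ndufb4c (0.37) and Ndufs6b (-0.47) did not pass the test, and Ndufa11b was listed at 0 in all libraries.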
